A study of Mus musculus with 23 samples.

Results

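The respiratory chain of brown adipose tissue (BAT) was followed through the transcripts of its nuclear-encoded subunits. Members were the genes of the deposited table whose symbols begin as those of the subunits of complexes I to V do (Nduf with a, b, c, s or v and a number, Sdha to Sdhd, Uqcr, Cyc1, Cox4 to Cox8 and Atp5), and 85 of the 14651 genes met this rule. They comprised 35 genes of complex I, 4 of complex II, 9 of complex III, 11 of complex IV (with Ndufa4) and 15 of complex V, together 74 subunit genes. A further 7 were kept apart as tissue isoforms or close relatives of common subunits (Cox4i2, Cox6a2, Cox6b2, Cox7a1, Cox7a2l, Cox8b and Ndufa4l2). The other 4 carry such a symbol without being a subunit (Atp5s, Atp5sl and the pseudogenes Atp5k-ps2 and Atp5l-ps2). All 85 had values in every library, after the authors' own filter on low counts.

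RNA came from the BAT of 23 male C57BL/6 mice aged 8 to 12 weeks, 1 library per mouse. Every mouse carried Mcu alleles with loxP sites (Mcu[fl/fl]), controls included. Control mice lacked Cre, and BAT-Mcu-KO mice (Mcu[fl/fl];Ucp1-Cre), hereafter KO mice, also carried Cre recombinase under the promoter of Ucp1, so the deletion is limited to cells that use this promoter. There were 6 control mice and 6 BAT-Mcu-KO mice at room temperature (RT), and 5 control mice and 6 BAT-Mcu-KO mice after 6 h at 4°C. The mice at 4°C were kept singly and without food, and the labels do not give the feeding of the mice at RT, so cold and fasting cannot be told apart here.

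Electrons from NADH enter the chain at complex I and those from succinate at complex II. Both pass by ubiquinone to complex III and by cytochrome c to complex IV, which reduces oxygen, while complexes I, III and IV pump protons that complex V, the ATP synthase, uses to make ATP. In brown adipocytes UCP1 lets the protons return without ATP synthesis, so that respiration yields heat, and brown fat is known for abundant respiratory chain and little ATP synthase for its size. Complexes I, III, IV and V also hold subunits encoded in mitochondrial DNA, whereas complex II is wholly nuclear-encoded. Complex IV has several subunits with a second isoform, of which COX7A1 and COX8B belong to muscle and brown fat.

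The deposited values are normalized counts, reads per gene divided by a size factor of the library. Reads on the tabulated genes ranged from 7129271 to 21006347 per library, of which the members took between 4.37% and 6.85%. The normalized count of Mcu, the deleted gene, lay between 70.8 and 136 in control mice and between 15.2 and 42.4 in KO mice. All 10 markers of brown adipocytes were above 0 in every library. The summed level of 22 markers of skeletal muscle, which borders the fat pad, ranged from 407 to 98558. The summed markers of other cell types moved with the cold: the brown adipocyte sum was 179864 to 249539 in control mice at RT and 300505 to 366167 at 4°C, and in KO mice it was 178135 to 199891 and 305621 to 344867. This sum holds Ucp1, which the paper reports as induced by cold. Ucp1 alone had medians of 64626 at RT and 160203 at 4°C in control mice, and of 55252.5 and 156459 in KO mice. The sum is thus no measure of how many brown adipocytes a sample held. The sum of 8 endothelial markers was 4737 to 6104 at RT and 7234 to 11927 at 4°C in control mice, and 4539 to 6243 and 6623 to 10739 in KO mice. That of 9 macrophage markers was 908 to 1307 and 1164 to 1776 in control mice, and 701 to 1284 and 1448 to 1874 in KO mice. That of 4 white adipocyte markers was 665 to 1328 and 370.3 to 595 in control mice, and 620.5 to 1908 and 496 to 816 in KO mice. Their part in the changes of the members by cold was not tested. Members are short genes for the most part, and 2 libraries stood apart in how they held short transcripts, those of control mice 1 and 6 at RT. In these the median subunit gene lay 0.40 and 0.51 above its own mean over the 23 libraries on the log2 scale, whereas in the other 21 libraries it lay between -0.20 and 0.16. Genes outside the family with transcripts under 750 nt lay 0.32 and 0.45 above their means in these same libraries, and those of 3000 nt or more lay 0.14 and 0.20 below theirs. The same 2 mice had the highest brown adipocyte sums at RT, 241952 and 249539. The next control mouse at RT had 197184, and the highest KO mouse at RT had 199891. Whether the higher sums and the higher subunit genes of these 2 mice go together was not tested. Counts of members called in control mice are therefore given with all mice, without mice 1 and 6, and after the trend on transcript length had been taken out of each library. Single genes are given with all mice, and in the other settings only where stated.

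**Figure D1:**
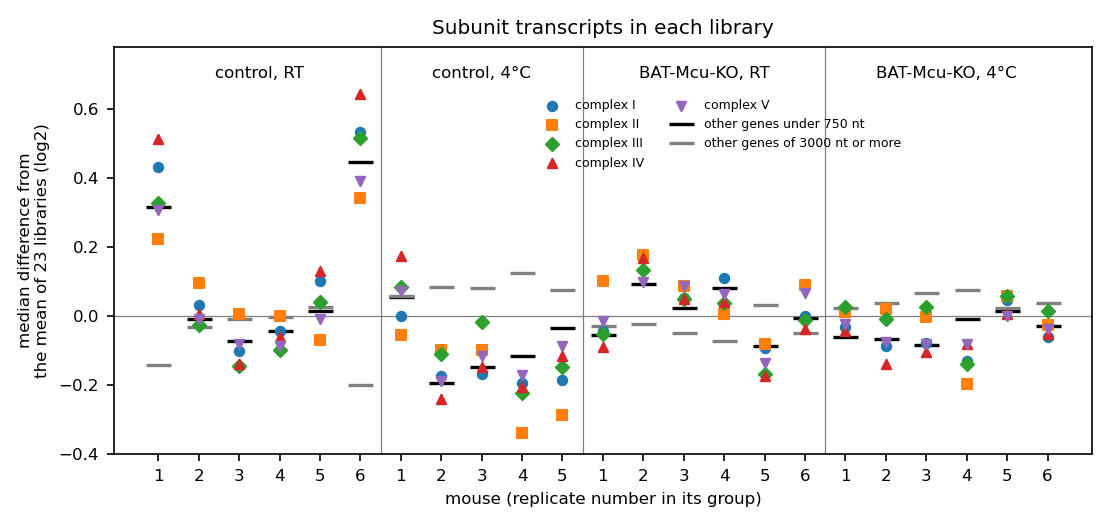
Median log2 difference of the subunit genes of each complex from their means over the 23 libraries (symbols), for each mouse by group, with the medians of the other genes of short (black dash) and long (grey dash) transcripts. All 5 complexes stand highest in control mice 1 and 6 at RT, where the short transcripts of other genes are high and the long ones low.

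Levels per length put Cox8b, Ndufa4 and Cox4i1 at the top of the family. Normalized counts were divided by the median length of a gene's transcripts in kilobases. In control mice at RT Cox8b, an isoform of the small complex IV subunit 8, stood at 51302 ± 18471 per kb (SD, n = 6). Ndufa4, a subunit of complex IV despite its name, stood at 42603 ± 10423 and Cox4i1, the common isoform of subunit 4, at 41349 ± 7444. Atp5b, the catalytic beta subunit of ATP synthase, followed at 38384 ± 4201 per kb. These neighbours differed by less than their spread. The median subunit gene of complex IV was at 21960 per kb, above 14389 for complex III, 11919 for complex II, 6508 for complex V and 6198 for complex I. At the foot of the order were Atp5g1 at 8.11 ± 3.52 and Cox6a2 at 14.8 ± 21.6 per kb, with Ndufa4l2 at 58.5 ± 12.5 and Cox4i2 at 59.6 ± 12.2. Reads that match more than 1 place were not counted, and 21 of 84 members share over 25% of their 25-base windows with transcripts of other genes, many of them pseudogenes. Atp5l shares 85.6% of them, Uqcrb 62.4%, Atp5o 61.8% and Ndufs3 61.4%, so the levels of these are uncertain, and 14 members share none. Atp5g1 shares 15.4% of its windows, most of all with Gm10039, and its level is uncertain too.

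The first question was what 6 h of cold did to these transcripts in control mice. Fold changes were below 0 for 70 of the 74 subunit genes, of which 36 passed the test. By limma on log2(normalized count + 1), with Benjamini-Hochberg adjustment over all genes, 39 of the 85 members fell and 1 rose at an adjusted p under 0.05. Of all genes 46% were called in either direction and 23.7% were lower. The subunit genes of the 5 complexes had a median log2 fold change of -0.25 against a median of -0.02 over all genes. By complex, 17 of 35 genes of complex I, 3 of 4 of complex II, 3 of 9 of complex III, 8 of 11 of complex IV and 5 of 15 of complex V fell, and none rose. Their median log2 fold changes were -0.27, -0.28, -0.14, -0.30 and -0.18. The 95% confidence interval lay wholly within 0.5 of 0 on the log2 scale for 41 of the 74 and reached beyond it for the others.

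Much of that fall rested on control mice 1 and 6 at RT. These 2 were picked after their high levels of the same genes were seen. Leaving out the highest mice at RT lessens a fall by construction, so the counts without them describe this dependence and test nothing. Without mice 1 and 6, 10 of the 85 members were lower and 1 was higher. The median of the 74 subunit genes was then -0.09, while 40.1% of all genes were called. Leaving out mouse 1 alone left 16 members called, beside 6356 of all 14651 genes, and leaving out mouse 6 alone left 17, beside 6340. Leaving out control mouse 2 or 4 at 4°C left 25 and 24, beside 6482 and 6259 of all genes. With the length trend removed 13 were lower and 2 higher, against 46.1% of all genes called, with a median of -0.10. Complexes III and IV then had no gene that fell, in contrast to 11 with all mice, and Uqcrh rose. When only the 2 groups compared entered the fit, 12 members were called, against 41.5% of all genes. In KO mice that fit called 14 members, against 45% of all genes. Scaling each library to its 75th percentile lowered the median of all genes from -0.02 to -0.13 and called 65 members, all lower. Of all 14651 genes this setting called 6925, of which 2644 rose.

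In KO mice, whose RT group has no such libraries, 6 of the 85 members fell at 4°C and none rose, against 43.3% of all genes called and 21.9% lower. Median log2 fold changes of the complexes were -0.09, -0.07, -0.04, -0.06 and -0.10 from I to V. Of the 74 subunit genes 4 fell, and 68 had a 95% interval within 0.5 of 0. With the length trend removed 7 members were lower and 5 higher, against 44.4% of all genes called. The share of members called in these mice, 7.06%, was below that of all genes in the same comparison, while 47.1% in control mice was close to it. Without control mice 1 and 6, 14.1% of members were called in KO mice against 44.3% of all genes, and 12.9% in control mice against 40.1%.

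**Figure D2:**
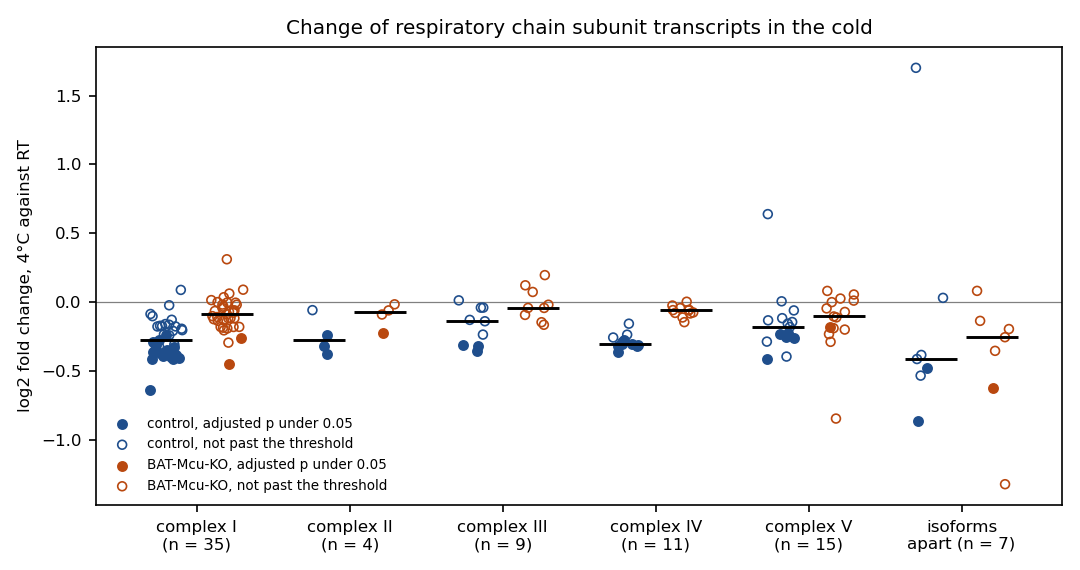
Log2 fold change at 4°C against RT of each gene of complexes I to V and of the isoforms kept apart, in control (blue) and KO mice (orange). Filled points passed an adjusted p of 0.05, bars are medians, and the complexes lie lower in control mice, with medians of -0.14 to -0.30, than in KO mice, with -0.04 to -0.10.

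In control mice these changes went with transcript length. Over the 74 subunit genes the correlation of log2 length with the log2 fold change was r = 0.53 (Spearman's rho 0.50) in control mice and r = 0.03 (rho 0.26) in KO mice, a description across genes that share libraries. In control mice it was r = 0.29 (rho 0.18) once mice 1 and 6 were left out. The genes of other families moved with length as well. Of the 261 other genes of at least 500 and under 750 nt whose mean level was 50 or above, 36.0% were lower in the cold in control mice, with a median of -0.22, and 18 of the 28 subunit genes of that length were lower, with a median of -0.30. From 1500 to under 3000 nt the other genes had a median of 0.01 and the 14 subunit genes one of -0.11, and 1 of these fell, Sdhc. Among them are genes of large catalytic or core subunits, such as Sdha, Uqcrc1, Uqcrc2, Cyc1, Atp5a1, Atp5b, Ndufs1 and Ndufv1. Their log2 fold changes lay between -0.14 and 0.01 in control mice, and none passed the threshold. The part of library preparation in this was not tested.

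**Figure D3:**
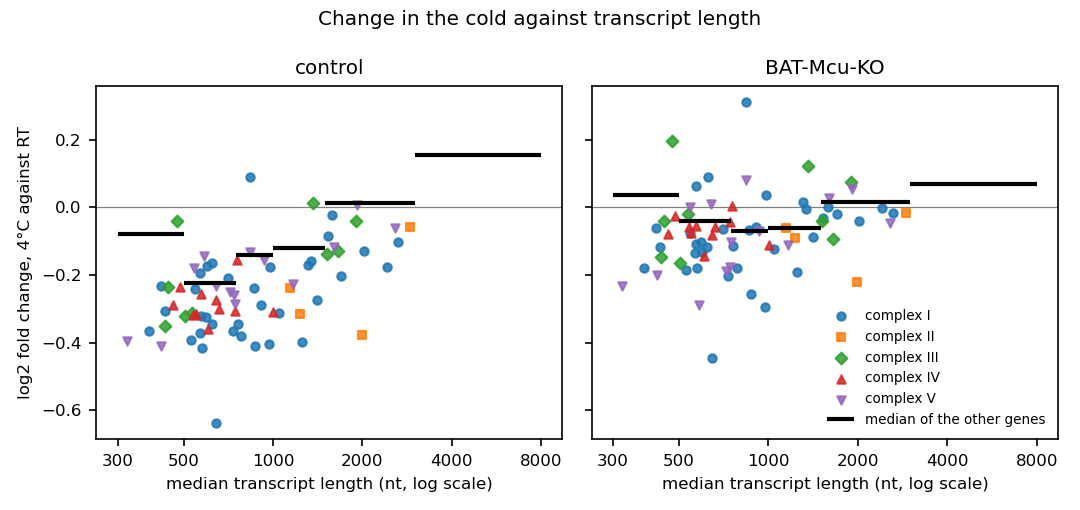
Log2 fold change at 4°C against RT of the subunit genes (symbols by complex) against the median length of their transcripts on a log scale, with the median of the other genes in each class of length (black bars). In control mice the bars stand at -0.08 under 500 nt, at -0.22 from there to 750 nt and then rise to 0.15 at 3000 nt or more, in KO mice they run between -0.07 and 0.07, and Atp5g1 (mean level under 50) is not drawn.

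Ndufv3, Ndufs7 and Atp5s were lower in the cold past the threshold in both genotypes under each of 34 alternatives. Sdhc was so in controls under all 34 and in KO mice under 30. Of the 34, 11 changed the processing, the fit or the genes or mice used, and 23 left out 1 mouse each. Leaving out a mouse of 1 genotype does not alter the fold change in the other, so these are not 34 separate checks. Ndufv3, an accessory subunit beside the NADH-binding flavoprotein of complex I, had normalized counts of 5789.9, 4101, 3744, 3802, 4244 and 6187 among controls at RT and 3244, 2977, 2993, 2786 and 2650.2 at 4°C. In KO mice it had 4086, 4661, 4303, 4428, 3803 and 4274 at RT and 3033, 3150.3, 2874, 2896, 3803 and 3048 at 4°C. In control mice the groups stood well apart, whereas in KO mice cold mouse 5 was only just below mouse 5 at RT (3802.7 against 3803.4). By limma the change in controls came to -0.64 on the log2 scale (SE 0.11, adjusted p = 4.58e-05) and that in KO mice to -0.45 (SE 0.11, adjusted p = 0.00143). Without control mice 1 and 6 both were near -0.44, and with the length trend removed -0.44 and -0.39. Ndufv3 lies on chromosome 17 of GRCm38 from 31520115 to 31531331 and shares no 25-base window with another gene.

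Ndufs7, which carries an iron-sulphur cluster close to the ubiquinone site of complex I, followed the same course. It had 8032, 6914, 6335, 6687, 7102 and 9839 normalized counts in control mice at RT and 5431, 5225, 5929, 5404 and 5915 at 4°C. The values in KO mice were 7344, 7543, 6907, 7460.1, 7229 and 7743 at RT and 6137, 6086, 6065, 5793, 6576 and 6334 at 4°C. The groups did not overlap in either genotype. Ndufs7 lies on chromosome 10 of GRCm38 from 80249121 to 80256794. Its log2 fold changes were -0.41 (SE 0.09, adjusted p = 0.000322, limma) and -0.26 (SE 0.08, adjusted p = 0.0122). Ndufs3, another core subunit of complex I, was lower in control mice (log2 fold change -0.31, adjusted p = 0.00201, limma). Ndufb10 and Ndufc2, accessory subunits of the membrane arm, and Ndufs3 were also lower in control mice under each of the 34 alternatives tried. In KO mice these 3 missed the threshold with all mice.

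Every cold control mouse lay below every control mouse at RT for 5 members (Ndufv3, Ndufs7, Ndufb10, Sdhc and Atp5s), where 12.3% of all genes did so. In KO mice this held for 3 members (Ndufv3, Ndufs7 and Atp5g2), against 11.9% of all genes.

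In complex II, the succinate dehydrogenase, the membrane anchors had the most negative fold changes. Sdhc, 1 of the 2 membrane anchors, had 4085, 3299, 2958, 3081, 3280.4 and 3965 normalized counts in control mice at RT and 2656, 2718, 2646, 2661 and 2469 at 4°C, with no overlap. In KO mice it had 3243, 3518, 3225, 3633, 2859.9 and 3211 at RT and 3063, 2864, 2592, 2428, 3134 and 2812 at 4°C, which overlapped. Its log2 fold changes were -0.38 (SE 0.09, adjusted p = 0.000942, limma) and -0.22 (SE 0.08, adjusted p = 0.0337). Sdhd, the other anchor, fell in control mice (log2 fold change -0.32, SE 0.09, adjusted p = 0.00381, limma), from 12555 ± 1146 (SD, n = 6) to 10103 ± 1102 normalized counts (n = 5). KO mice gave -0.09 (SE 0.08) for the same gene. Sdhb, the iron-sulphur subunit, had a log2 fold change of -0.24 in control mice (adjusted p = 0.0266, limma) and -0.11 without mice 1 and 6 (adjusted p = 0.215). Sdha, the flavoprotein that oxidizes succinate, had 39555 ± 4022 normalized counts at RT and 38188 ± 5818 at 4°C in control mice. Its log2 fold changes of -0.06 and -0.02 had SEs of 0.10 and 0.10.

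In complex III none of the 9 genes was lower in KO mice, and the 3 that were lower in control mice (Uqcr10, Uqcrq and Uqcrb) are small subunits that lost the call without mice 1 and 6. The Rieske protein gene Uqcrfs1 and Cyc1, for cytochrome c1, had log2 fold changes of 0.01 and -0.14 in control mice, neither past the threshold. In complex V the 2 calls among the 5 genes of the F1 head were Atp5c1 at -0.23 and Atp5e at -0.41, whereas the large alpha and beta subunits, Atp5a1 and Atp5b, had -0.06 and 0.01. Without mice 1 and 6 neither call was kept, with Atp5c1 at -0.11 and Atp5e at -0.19, and with the length trend removed Atp5e alone passed, at -0.17. Atp5j, of the peripheral stalk that holds the head, was called in both genotypes, at -0.26 on the log2 scale in controls (SE 0.07, adjusted p = 0.00405, limma) and at -0.18 in KO mice (SE 0.07, adjusted p = 0.0372). With the length trend removed it was at -0.07 (adjusted p = 0.378) and -0.12 (adjusted p = 0.107), and it shares 17.5% of its windows, mostly with the neighbouring Gabpa. Outside the complexes Atp5s, which encodes coupling factor B of ATP synthase, fell from 229 ± 51.7 to 121 ± 15.8 normalized counts in control mice (log2 fold change -0.89, SE 0.15, adjusted p = 1.64e-05, limma). In KO mice it fell from 212 ± 28.4 to 146 ± 18.5 (log2 fold change -0.53, SE 0.14, adjusted p = 0.00301, limma). Atp5sl, whose product helps assemble the membrane arm of complex I, was the 1 member that rose in control mice (log2 fold change 0.25, SE 0.08, adjusted p = 0.0143, limma).

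**Figure D4:**
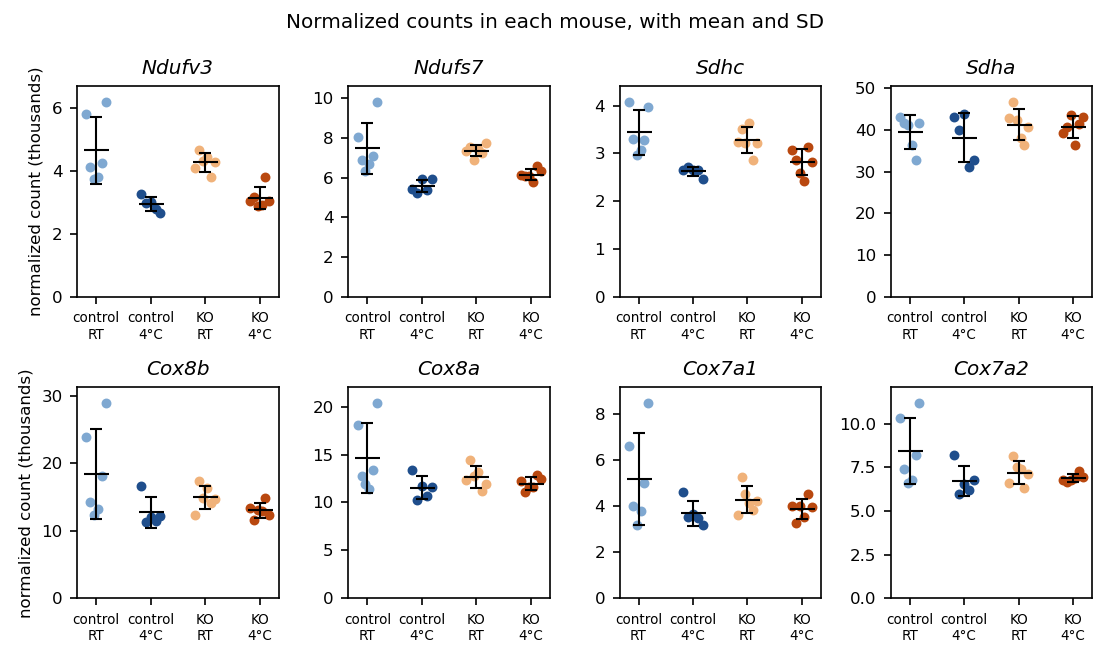
Normalized counts of 8 members in each mouse, by group, with the mean and SD in black. Ndufs7 lies lower at 4°C in both genotypes without overlap, Ndufv3 does so but for 1 cold KO mouse level with the lowest at RT, Sdha overlaps between all groups, and the 2 highest control mice at RT for Cox8b, Cox8a, Cox7a1 and Cox7a2 are mice 1 and 6.

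The next comparison asked whether the tissue isoforms of complex IV moved apart from their common partners. The promoters of the brown fat and muscle isoforms Cox7a1 and Cox8b are shown with those of Cox8a and Cox6a1, the common forms of subunits 8 and 6a. The latter 2 are examples that hold motifs of factors linked to mitochondrial genes. Each runs 5′ to 3′ on the strand of the gene, from 250 bases before to 50 after its start (RefSeq, GRCm38.p6). Capitals mark matches on either strand to the motifs of NRF1 (GCGCATGCG), ESRRA (AAGGTCA), GABPA (CCGGAAG) or CREB (TGACGTCA).
Cox7a1 promoter, chr7:30183921-30184220, plus strand: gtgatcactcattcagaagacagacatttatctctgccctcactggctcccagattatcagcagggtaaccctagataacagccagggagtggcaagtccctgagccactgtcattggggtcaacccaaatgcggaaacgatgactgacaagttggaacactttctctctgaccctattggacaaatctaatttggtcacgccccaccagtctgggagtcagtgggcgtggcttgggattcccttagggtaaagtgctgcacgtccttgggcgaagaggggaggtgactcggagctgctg
Cox8b promoter, chr7:140900397-140900696, minus strand: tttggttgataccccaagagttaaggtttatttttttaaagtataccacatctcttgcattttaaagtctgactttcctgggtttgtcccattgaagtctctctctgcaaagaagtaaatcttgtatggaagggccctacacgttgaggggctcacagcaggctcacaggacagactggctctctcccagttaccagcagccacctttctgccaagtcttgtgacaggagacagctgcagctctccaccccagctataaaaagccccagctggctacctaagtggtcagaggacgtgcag
Cox8a promoter, chr19:7217567-7217866, minus strand: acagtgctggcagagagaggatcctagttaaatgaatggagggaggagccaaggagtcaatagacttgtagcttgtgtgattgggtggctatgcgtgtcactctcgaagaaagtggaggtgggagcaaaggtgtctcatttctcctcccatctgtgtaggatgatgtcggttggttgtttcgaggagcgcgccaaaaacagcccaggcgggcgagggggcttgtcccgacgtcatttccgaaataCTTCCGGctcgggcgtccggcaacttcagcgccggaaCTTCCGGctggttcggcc
Cox6a1 promoter, chr5:115348909-115349208, minus strand: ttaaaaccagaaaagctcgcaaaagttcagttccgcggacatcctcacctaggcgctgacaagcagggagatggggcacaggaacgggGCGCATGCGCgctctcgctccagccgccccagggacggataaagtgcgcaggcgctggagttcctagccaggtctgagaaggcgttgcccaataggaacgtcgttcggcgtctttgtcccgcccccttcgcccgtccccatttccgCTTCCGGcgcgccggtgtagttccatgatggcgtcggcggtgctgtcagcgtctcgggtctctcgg
Cox7a1 and Cox8b hold no match in this window. Neither do Cox7a2, Cox5a, Cox5b, Cox7b, Cox7c and Ndufa4 among the common genes of complex IV, so a lack of matches does not set the tissue isoforms apart. Cox8a holds 2 GABPA matches, and Cox6a1 holds 1 GABPA match and 1 NRF1 match, a palindrome read on both strands. Among 71 promoters of the 66 members with an entry, NRF1 was found in 11.3% (1.75% of all promoters, 3.45% of those of genes in the table), ESRRA in 11.3% (4.72% and 3.36%), GABPA in 22.5% (8.86% and 16.8%) and CREB in 5.63% (1.79% and 2.93%). A match in these letters is not a binding site, and its absence says nothing of the factor.

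Cox8b had 23922, 14329.6, 12286, 13282, 18087 and 28906 normalized counts in control mice at RT and 16643, 11238, 12111, 11449 and 12132 at 4°C. In KO mice it had 12399, 17425, 14891, 16266, 14129.7 and 14640.2 at RT and 13362, 11605, 13102, 12892, 14902 and 12312 at 4°C. Mice 1 and 6 were the highest controls at RT, and the groups overlapped in both genotypes. Controls changed by -0.48 on the log2 scale (SE 0.16, adjusted p = 0.0183, limma), or by -0.19 without mice 1 and 6 (adjusted p = 0.225) and -0.23 with the length trend removed (adjusted p = 0.0132). In KO mice it was -0.20 (SE 0.16, adjusted p = 0.334). Its common partner Cox8a, from 14668 ± 3668 at RT to 11543 ± 1205 at 4°C in control mice, had -0.32 (SE 0.12, adjusted p = 0.0310, limma), and -0.11 without mice 1 and 6.

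Cox7a1 had 6601, 4004, 3169, 3766, 5004 and 8452 normalized counts in control mice at RT and 4606, 3524, 3650.3, 3475 and 3180.2 at 4°C. The values in KO mice were 3611, 5269, 4521, 4145, 3844 and 4203 at RT and 3990.1, 3261, 3982, 3537, 4529.6 and 3944 at 4°C. Its log2 fold changes, -0.41 in controls (SE 0.17, adjusted p = 0.0530, limma) and -0.14 in KO mice (SE 0.16, adjusted p = 0.538), did not pass the threshold. Cox7a2, the common form, had -0.30 (adjusted p = 0.0325, limma) in control mice and -0.06 in KO mice. It was at -0.11 without mice 1 and 6 (adjusted p = 0.344, limma), and with the length trend removed at -0.10 (adjusted p = 0.197).

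The isoforms were also set against their partners within each mouse. The log2 ratio of Cox8b to Cox8a was 0.29 at RT and 0.13 at 4°C in control mice, a difference of -0.16 (exact permutation test, two-sided, p = 0.106, adjusted p = 0.591 over 28 tests). In KO mice the ratio was lower by 0.12 at 4°C (exact p = 0.0758). The ratio of Cox7a1 to Cox7a2 differed by -0.11 in control mice (exact p = 0.359) and by -0.08 in KO mice (exact p = 0.260). With these group sizes the smallest p that the test can give is 0.00216 for 6 mice against 6 and 0.00433 for 6 against 5, so that a single ratio could not go below an adjusted p of 0.0606 or 0.121 over the 28 tests (7 pairs in 4 comparisons). None passing after adjustment therefore says nothing of whether the proportions are stable. The smallest exact p, 0.00433, was that of Atp5g3 to Atp5g2 by genotype at RT, where the ratio was lower by 0.31 in KO mice (adjusted p = 0.121). The genes whose pattern over the 23 libraries was most like Cox7a1 were Atp5j2 (r = 0.97), Ndufa3, Cox8b, Ndufa4 and Uqcrq, and those most like Cox8b were Atp5j2 (r = 0.98), Atp5e, Ndufa2, Cox6c and Ndufa7. All of these are members, from complexes I, III, IV and V. All are also short, from 360 nt (Cox8b) to 747.5 nt (Atp5j2), and the 23 libraries include control mice 1 and 6 at RT. The part of transcript length in this likeness was not tested.

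Cox6a2, the form of subunit 6a of heart and skeletal muscle, and Atp5g1, 1 of 3 genes for the c subunit of the ATP synthase ring, moved with muscle markers between mice. Cox6a2 had 39.5, 7.76, 5.66, 3.26, 4.14 and 0 normalized counts in control mice at RT and 0, 220.0, 0, 66.1 and 207 at 4°C. In KO mice it had 2.59, 7.24, 309, 280.4, 0 and 200.4 at RT and 30.9, 35.9, 3.2, 12.8, 30.2 and 0 at 4°C. In the 10 libraries with the highest sums of 22 skeletal muscle markers, 9607 to 98558, Cox6a2 was between 30.2 and 309. In the other 13, with sums of 407 to 6325, it was between 0 and 12.8, and up to 13 of the markers were at 0. Atp5g1 was between 78.9 and 98.6 in the 5 libraries with the highest sums, 63519 to 98558, and between 8.70 and 36.5 in the other 18. At the split used for Cox6a2 it overlapped, at 19.4 to 98.6 in the 10 libraries and 8.70 to 27.7 in the other 13. Eno3, Casq1 and Neb, muscle genes, were most like Cox6a2 over the libraries (r = 0.98 to 0.99), and Tmem38a was most like Atp5g1 (r = 0.93). Fewer cells of a type and less RNA per cell cannot be told apart in such bulk samples. Neither gene passed the threshold by limma with all mice in any of the 5 comparisons. On the recovered reads edgeR called Cox6a2 in the cold in both genotypes (log2 fold change 3.20 in control mice, adjusted p = 0.0262, and -2.76 in KO mice, adjusted p = 0.0358). Atp5g1 was called in KO mice by edgeR (-1.29, adjusted p = 0.0356), by DESeq2 (-1.29, adjusted p = 0.0392) and by limma without KO mouse 5 at RT (-1.25, adjusted p = 0.0427). Cox8b, another muscle isoform, was between 11238 and 23922 in the 10 libraries high in muscle markers and between 12111 and 28906 in the other 13.

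**Figure D5:**
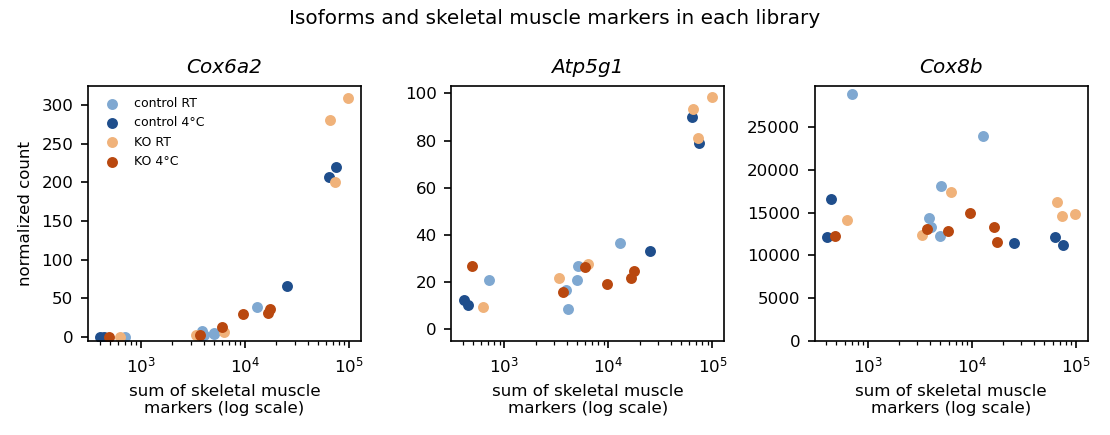
Normalized counts of Cox6a2, Atp5g1 and Cox8b in each library against the sum of 22 skeletal muscle markers on a log scale, coloured by group. Cox6a2 and Atp5g1 are highest in the 5 libraries with sums of 63519 or more, 2 from control mice at 4°C and 3 from KO mice at RT, and Cox8b is not.

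The remaining isoforms were scarce. Cox4i2, an isoform of subunit 4 known from lung and the cells around vessels, had 43.5 ± 8.92 normalized counts in control mice at RT and 30.6 ± 10.2 at 4°C, on 10 to 70 reads a library. In KO mice it had 51.8, 32.6, 46, 31.4, 48.3 and 24.7 at RT and 28.3, 20.2, 25.6, 26.5, 17.8 and 29.2 at 4°C, groups that overlapped, and it fell (log2 fold change -0.62, SE 0.22, adjusted p = 0.0261, limma), and in control mice its change was -0.53 (SE 0.23, adjusted p = 0.0647). Ndufa4l2, a relative of Ndufa4 also found in such cells, had -0.38 and -0.25, neither past the threshold. The summed level of 10 markers of mural cells was 7784 to 9971 in control mice at RT and 6177 to 8805 at 4°C. In KO mice this sum was 7490 to 9630 at RT and 6503 to 8306 at 4°C, and its part in the lower Cox4i2 was not tested. Cox6b2, a form of subunit 6b known from testis, fell in control mice (log2 fold change -0.86, SE 0.29, adjusted p = 0.0153, limma), on 6 to 39 reads in each control library. It was called there under 30 of 33 alternatives, but not with the length trend removed. In KO mice Cox6b2 had -0.35 (adjusted p = 0.315, limma). Cox7a2l, a relative of Cox7a2, had 1234 ± 155 normalized counts at RT and 1256 ± 105 at 4°C in control mice. Of the c subunit genes Atp5g3 was the most abundant per length at 5283 ± 878 per kb in control mice at RT, above Atp5g2 at 234 ± 50.9. Atp5g2 shares 40.8% of its 25-base windows with other genes and Atp5g3 1.39%, so the level of Atp5g2 is uncertain. Atp5g3 fell in control mice (log2 fold change -0.25, adjusted p = 0.0485, limma) and was at -0.11 without mice 1 and 6 (adjusted p = 0.371).

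The last question was whether the subunits differed by genotype, that is with loss of MCU, the pore of the mitochondrial calcium uniporter. All KO mice and no control mice carried the Ucp1-Cre transgene, so loss of MCU and the transgene cannot be told apart here. No member was called by genotype. At RT none of the 85 passed, against 0.0478% of all genes (7 of 14651), and at 4°C none, against 0.0751% (11 genes). Unadjusted p-values under 0.05 were found for 3 members at RT and 2 at 4°C by limma, beside 5.15% and 6.98% of all genes, and edgeR and DESeq2 called no member. The 95% intervals lay within 0.5 of 0 for 70 of the 74 subunit genes at RT and for 72 at 4°C. At RT the lowest unadjusted p-values were those of Ndufc2, Cox7c and Cox5b, of complexes I and IV, with log2 fold changes of -0.20, -0.25 and -0.25 in KO mice against controls. The adjusted p of each was 0.940 (limma). The median over the 74 subunit genes was -0.11 at RT with all mice and 0.06 without control mice 1 and 6.

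At 4°C the lowest were Ndufs8, another iron-sulphur subunit of complex I, Ndufs3 and Sdhb, with log2 fold changes of 0.24, 0.19 and 0.18 and adjusted p-values of 0.528, 0.632 and 0.714 (limma). Ndufs8 had 6369.7, 6237, 6769, 5829 and 5948 normalized counts in cold control mice and 7435, 7353, 7769.9, 6841, 7904 and 6969 in cold KO mice. All 6 of the latter were above all 5 of the former, as they were for Ndufb5, an accessory subunit. These are 2 of the 85 members, and 0.389% of all genes (57) did the same.

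A difference between the genotypes in the response to cold was tested by the interaction, which called 0% of all genes by limma, with 878 genes and 1 member (Ndufb5, log2 difference 0.25, SE 0.11, adjusted p = 0.801) at an unadjusted p under 0.05. DESeq2 called 28 genes, none of them a member, and edgeR called none. The other low values were those of Atp5g1 (-1.48, SE 0.76, unadjusted p = 0.0618, adjusted p = 0.841, limma) and Atp5o (0.21, SE 0.11, unadjusted p = 0.0621, adjusted p = 0.841). The greater number of members called in control than in KO mice is therefore not shown to be a difference in response. The median interaction over the 74 subunit genes was 0.19 with all mice and 0.01 without control mice 1 and 6.

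Other genes of the pathway were taken from lists. They comprised known assembly factors of complexes I to V, other electron carriers, genes associated with ATP synthase and the mitochondrial genome. The genes named from them were chosen after their values were seen. Of 47 assembly factors 9 rose and 17 fell by cold in control mice and 8 rose and 8 fell in KO mice, 13 of them the same way in both. These are 55.3% and 34.0% of the list, beside 46% and 43.3% of all genes, and so no result about assembly factors as a group. Without control mice 1 and 6 the counts in control mice were 6 and 11, and 13 were called the same way in both genotypes. Ndufaf4, a complex I assembly factor, rose by 0.77 in control and 0.80 in KO mice on the log2 scale (adjusted p = 2.18e-07 and 5.86e-08, limma). Cox11 and Cox19, which serve the delivery of copper to complex IV, rose by 1.05 and 0.40 in control mice and by 1.01 and 0.68 in KO mice. Uqcc1, a complex III factor, fell by 0.63 and 0.60, and Cox14, for complex IV, fell by 0.66 and 0.49.

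Among 9 other carriers Cycs, for cytochrome c, rose by 0.32 in control and by 0.47 in KO mice on the log2 scale (adjusted p = 0.00420 and 5.46e-05, limma). Etfb, Dhodh and Sqrdl, which feed electrons from fatty acids, pyrimidine synthesis and sulphide, fell in both genotypes, Dhodh by 0.86 and 0.92. Etfa and Etfdh, which are also on the list, are not given here. Of all genes 46% were called in control and 43.3% in KO mice, and carriers picked in this way are no result about the 9 as a group. Of 8 mitochondrially encoded subunit transcripts in the table none passed in control mice and 2, mt-Nd1 and mt-Nd6, rose in KO mice, by 0.45 and 0.47. Without control mice 1 and 6, 3 of the 8 rose in control mice. All genes were called at 43.3% in KO mice, and at 40.1% in control mice without mice 1 and 6. These counts are therefore no result about the mitochondrial transcripts as a group. Atpif1, the inhibitor of ATP synthase, fell by 0.84 in control and 0.70 in KO mice, with a mean of only 49.2 normalized counts over all libraries. The genes listed with it, Usmg5 and 2010107E04Rik, had means of 1342 and 2790, and their changes are not given here. None of the 47 assembly factors was called by genotype at either temperature.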

How the data were processed

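Smart-seq2 libraries of BAT from 23 mice were sequenced from both ends. The authors aligned reads with STAR 2.4.0j to mm10 (GENCODE M7), counted unique exonic reads irrespective of strand with HTSeq, kept 14651 genes and deposited normalized counts, a signal in which the reads of a library are divided by its DESeq2 size factor. A second deposited file holds only the authors' fold changes and was not used. All values were whole multiples of 1 read within 0.05 (100% of values), and the reads so recovered entered the edgeR and DESeq2 alternatives, which called 45 members each by cold in control mice. Of all 14651 genes edgeR called 6780 and DESeq2 6875 in that comparison. Chi-square per degree of freedom between libraries of a group was 9.42 to 68.9 over 55 pairs, and each mouse was 1 replicate. Counting error is small for members, except those with few reads, and PCR copies cannot be told apart.

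The main test was limma 3.58.1 (R 4.3.3) on log2(normalized count + 1) with a variance trend, all 23 mice, a mean for each of 4 groups and Benjamini-Hochberg adjustment over all genes. A fold change on this scale understates that of genes with few reads. edgeR 4.0.16 and DESeq2 1.42.0 were alternatives. Isoform ratios were tested by exact permutation, two-sided. The scripts were tested on simulated data. Transcript lengths and positions came from GENCODE M21 (GRCm38) for 84 of 85 members, and the length trend was a lowess fit per library on log2 length over genes with a mean of 50 or more.

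Named were the isoforms, their partners and the Sdh genes, up to 2 members per complex (I, III, IV and V) and direction called in both genotypes with the largest change in control mice, the 3 lowest p-values in each genotype and interaction test and the 3 highest levels per length. The members, lists and rules were chosen with earlier results of these data known. Further members named beside them and the alternatives on length and on control mice 1 and 6 were chosen after their values were seen.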

Additional observations from a re-analysis of the deposited data

Results flagged for a closer look

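In each group the named members were searched for a mouse far from the others (a gap to its neighbour above Dixon's critical ratio). Of 116 sets of values 9 held one, and chance flags about 1 in 20. Control mouse 1 at 4°C was the high mouse for Cox8b (16643), Ndufa4 (19081), Ndufc2 (3194) and Cox5b (8380), in normalized counts, with gap ratios of 0.835, 0.830, 0.813 and 0.794. In that library the median subunit gene lay 0.04 above its mean and other genes under 750 nt lay 0.06 above theirs on the log2 scale, whereas in the other 4 cold control mice both medians were below 0. The part of this in the result was not tested. Control mouse 5 at 4°C was low for Sdhc (2469), and control mouse 1 at RT was high for Cox6a2 (39.5), with a skeletal muscle marker sum of 12898. Among BAT-Mcu-KO mice at 4°C, mouse 4 was low for Sdhd (9523) and high for Atp5o (5847), and mouse 5 was high for Ndufv3 (3803), the value nearest to those at RT. No member passed the test of a difference in response between genotypes.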

How the results depend on the processing

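No member was called by genotype, at either temperature, or by the interaction, under any alternative that was run. The isoform ratios say nothing here, since a single ratio cannot pass after adjustment at these group sizes. The 40 members called by cold in control mice became 65 with 75th percentile scaling, 12 with only the 2 compared groups, 11 without control mice 1 and 6 at RT and 15 with the length trend removed, and 16 to 49 when 1 mouse was left out. The lowest, 16 and 17, came without control mouse 1 and without control mouse 6 at RT, and 25 and 24 without control mouse 2 and mouse 4 at 4°C. Of all 14651 genes 6925 were called with 75th percentile scaling and 6256 to 6756 when 1 mouse was left out. The 6 in BAT-Mcu-KO mice became 27 with quantile normalization, 14 with only the 2 groups, 12 without control mice 1 and 6 and 12 with the length trend removed (5 higher, 7 lower). Quantile normalization called 6401 of all genes by cold in BAT-Mcu-KO mice. In control mice Ndufv3, Ndufs7, Sdhc, Sdhd, Ndufs3, Ndufb10, Ndufc2 and Atp5s were lower past the threshold under each of 34 alternatives, and in BAT-Mcu-KO mice Ndufv3, Ndufs7 and Atp5s were, while Sdhc was under 30. Same-numbered mice are different animals, and their deviations had mean correlations of -0.10 to 0.12, so the numbers were not taken to pair them. With the replicate number as a block 29 members were called by cold in control mice (40 without it), 6 in BAT-Mcu-KO mice and 0 by genotype at RT, at 4°C and by the interaction. That block called 6610 and 6376 of all genes by cold in control and BAT-Mcu-KO mice. The exact paired permutation test of isoform ratios cannot go below p = 0.0625 with 5 pairs or 0.0312 with 6 and so decides nothing. In no group comparison did every mouse correlate best with its own number.

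The direction of some values that had not passed the threshold turned. Under 75th percentile scaling, Cox7a2l in control mice was at -0.0777, and Cox4i1 and Ndufs8 in BAT-Mcu-KO mice were at -0.0482 and -0.0155. Under quantile normalization Cox7a2l was at -0.14 and -0.0706 in control and BAT-Mcu-KO mice, Sdha at 0.0884 and 0.11, and Ndufs8, Ndufb5 and Atp5o in BAT-Mcu-KO mice at -0.0690, -0.0498 and -0.0640. With edgeR Cox4i1 in BAT-Mcu-KO mice was at -0.000966. Without control mice 1 and 6 Cox4i1 and Atp5g2 in control mice were at 0.000458 and 0.0180. With the length trend removed Cox4i1, Atp5g2, Ndufb5 and Atp5o in control mice were at 0.0301, 0.0659, 0.0402 and 0.0432, and Cox5b in BAT-Mcu-KO mice at 0.0102. With 1 mouse left out Sdha ranged from -0.11 to 0.0114 in control and -0.0504 to 0.0218 in BAT-Mcu-KO mice, Cox7a2l in control mice from -0.0116 to 0.0759 and Cox4i1 in BAT-Mcu-KO mice from -0.0118 to 0.0256. The cause was not tested. Depth limits Cox4i2, Cox6b2, Ndufa4l2, Atp5g1 and Cox6a2, which rest on few reads.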
